A study of Mus musculus with 4 samples.

Results

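The STAT and SOCS genes described here are *Stat3*, *Stat4*, *Stat5a*, *Stat5b*, *Stat6*, *Socs1*, *Socs2*, *Socs3* and *Cish*. They were matched by gene ID in both gene expression libraries, and all 9 are among the 31950 gene IDs that the libraries have in common. STAT proteins are transcription factors that sit inactive in the cytoplasm until a cytokine receptor's JAK kinase phosphorylates them, whereupon they pair, enter the nucleus and bind DNA. Among the genes they switch on are those of the SOCS proteins and CIS (*Cish*), which bind the same receptors or kinases and dampen the signal. In gut lymphocytes, STAT3 relays IL-6, IL-21 and IL-23 and is required for Th17 cells. STAT4 relays IL-12, STAT5A and STAT5B relay IL-2 and IL-7, and STAT6 relays IL-4 and IL-13.

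The cells came from the lamina propria of the proximal small intestine of 12-week-old WT mice and of *A20ZF7* mice, knock-in mice homozygous for point mutations in zinc finger 7 of the ubiquitin-editing protein A20, a change that UMI counts do not read. Each genotype is 1 library of 2 pooled mice, enriched for T cells and innate lymphoid cells (ILCs) by negative selection, and the cells of each mouse carried their own hashtag antibody. Values are counts of UMIs (unique molecular identifiers, 1 for each captured RNA molecule), given as CPM, the usual scale on which the UMIs of a gene are divided by all UMIs of the summed cells of a class. Of 60000 cells collected per genotype, 19721 WT barcodes (median 883 UMIs) and 38248 *A20ZF7* barcodes (median 960 UMIs) passed the filters.

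With 1 library per genotype there is no test between genotypes, and every interval below is a 95% exact counting interval that covers counting error alone. The mice, the gene list used for counting and the handling of each library cannot be told apart from genotype. The libraries were counted on different gene lists: 1746 gene IDs were listed for WT only and 335 for *A20ZF7* only, and IDs not in common held 0.334% of WT and 3.41% of *A20ZF7* UMIs. The passing barcodes had 1051 barcode sequences in common. The antibody matrices of both genotypes were identical and matched the WT barcodes, so the 2 WT mice could be told apart (7015 cells with hashtag 7, 3704 with hashtag 8, 9002 without a call) and the *A20ZF7* mice could not. Barcodes with 2 hashtags were therefore removed from WT alone.

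Clusters made without these genes were named from marker lists. The lymphocyte barcodes (9113 WT and 18283 *A20ZF7*) joined the Th17-like, Treg-like, CD8 T-like, dividing, ILC2-like and ILC3-like clusters with a T cell cluster called other T-like. That cluster was led by *Il12rb2*, *Gcg*, *Cd40lg* and *Cd28*. Its highest-scoring marker list was that of Th1 or NKT cells, which includes *Il12rb2*. The name was withheld because the leading genes held 1 gene of that list and 2 of another, and only 2 of the list's markers were detected. The myeloid barcodes (357 and 1210) were 1 macrophage or monocyte-like cluster, called macrophage-like, and the stromal barcodes (8240 and 13568) were fibroblast-like and smooth muscle-like. The 2 genotypes filled some classes unequally: Th17-like cells numbered 249 in WT and 4178 in *A20ZF7*, and 6476 of 11973 *A20ZF7* fibroblast-like cells but 648 of 5995 WT ones lay in the cluster led by *Sfrp1* and *Serpina3n*, whereas the fibroblast-like cluster led by *Plac9a* held 2042 WT and 99 *A20ZF7* cells. The limits for naming clusters were set after the clusters were seen, and stromal cells remained in both libraries after the selection. T cell genes were also found in other cells: the summed level of 5 T cell genes (*Cd3e*, *Cd3d*, *Cd3g*, *Trac*, *Trbc2*) was 301 CPM in WT and 985 CPM in *A20ZF7* stromal barcodes, against 1812 and 2317 CPM in lymphocyte barcodes, and all 5 were detected in both.

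STAT dimers favour the palindrome TTCNNNGAA, which reads the same on both strands, and the windows around the members' start sites were searched for it. RefSeq start-site windows on GRCm38.p6, from 250 bases before to 50 bases after a start, were found for 8 of the 9 genes, and none for *Socs2*. The motif lay in the windows of *Socs3* and *Cish* and in none of the windows of *Stat3*, *Stat4*, *Stat5a*, *Stat5b*, *Stat6* and *Socs1*. Among 32851 windows of this length, 8.3% held it. The form with 1 more base between its arms, in 6.95% of all windows, was in none of the members' windows. The sites are shown with the motif in capitals, the *Socs3* one on the minus strand at chr11:117969504-117969528 and the *Cish* pair on the plus strand at chr9:107296654-107296683.
Socs3: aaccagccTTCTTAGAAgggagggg
Cish: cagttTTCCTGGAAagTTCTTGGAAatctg
Counted from the RefSeq start of these windows, the *Socs3* motif begins 154 bases before it, whereas both *Cish* motifs lie in the first transcribed bases. The gene spans listed further below begin upstream of these windows, at 117970047 for *Socs3* and 107296026 for *Cish*. By those spans the genes contain all of these motifs. These are matches of letters, not sites shown to be bound.

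*Stat3*, which Th17 cells depend on, was higher in *A20ZF7* than in WT in each of the 24 clusters with enough UMIs to compare, by 1.01- to 2.73-fold (median 1.48-fold). The counting interval of the ratio lay above 1 in 19 of these clusters, which include stromal and other cells. Whether a cluster had enough UMIs was judged by the rate pooled over both libraries. Where *A20ZF7* gave most UMIs, this favoured clusters in which the gene was high in *A20ZF7*. The share of all genes that were higher in every cluster compared is not given. In lymphocyte barcodes the *Stat3* level was 370 CPM (356 to 384) in WT and 536 CPM (525 to 547) in *A20ZF7*, a ratio of 1.45 (1.39 to 1.51). Th17-like cells had 280 CPM in WT, from 58 UMIs, and 550 CPM in *A20ZF7*, from 2053 UMIs, a ratio of 1.96 (1.51 to 2.59). The ILC3-like cells, which share the IL-23 receptor with Th17 cells, had 371 and 643 CPM, a ratio of 1.74 (1.59 to 1.90) that was 1.15 to 1.17 where classes were set from marker UMIs in place of clusters. The levels were closer in Treg-like cells (555 and 678 CPM, ratio 1.22, 0.976 to 1.55) and closest in endothelial-like cells (408 and 432 CPM, ratio 1.06, 0.93 to 1.21). In WT the Treg-like cells stood above all other classes. The order below them, from CD8 T-like (414 CPM) through endothelial-like, ILC2-like and ILC3-like to Th17-like (280 CPM), macrophage-like, smooth muscle-like and fibroblast-like (223 CPM) had no neighbouring pair apart beyond counting error. The ends of this order, 414 and 223 CPM, were apart beyond counting error. In *A20ZF7* the Treg-like and ILC3-like cells led, within counting error of each other, followed by CD8 T-like (593 CPM) and Th17-like cells.

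The share of lymphocyte barcodes with a *Stat3* UMI was 24.3% in WT (median 718 UMIs) and 37.3% in *A20ZF7* (median 834 UMIs). With every cell thinned to 500 UMIs, which left out 44 WT and 987 *A20ZF7* cells, it was 15.9% (15.2 to 16.7) and 23.4% (22.8 to 24.1). Plasma cell-like barcodes (median 3388 and 2036 UMIs), thinned alike, had 3.89% and 9.9%.

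**Figure D1:**
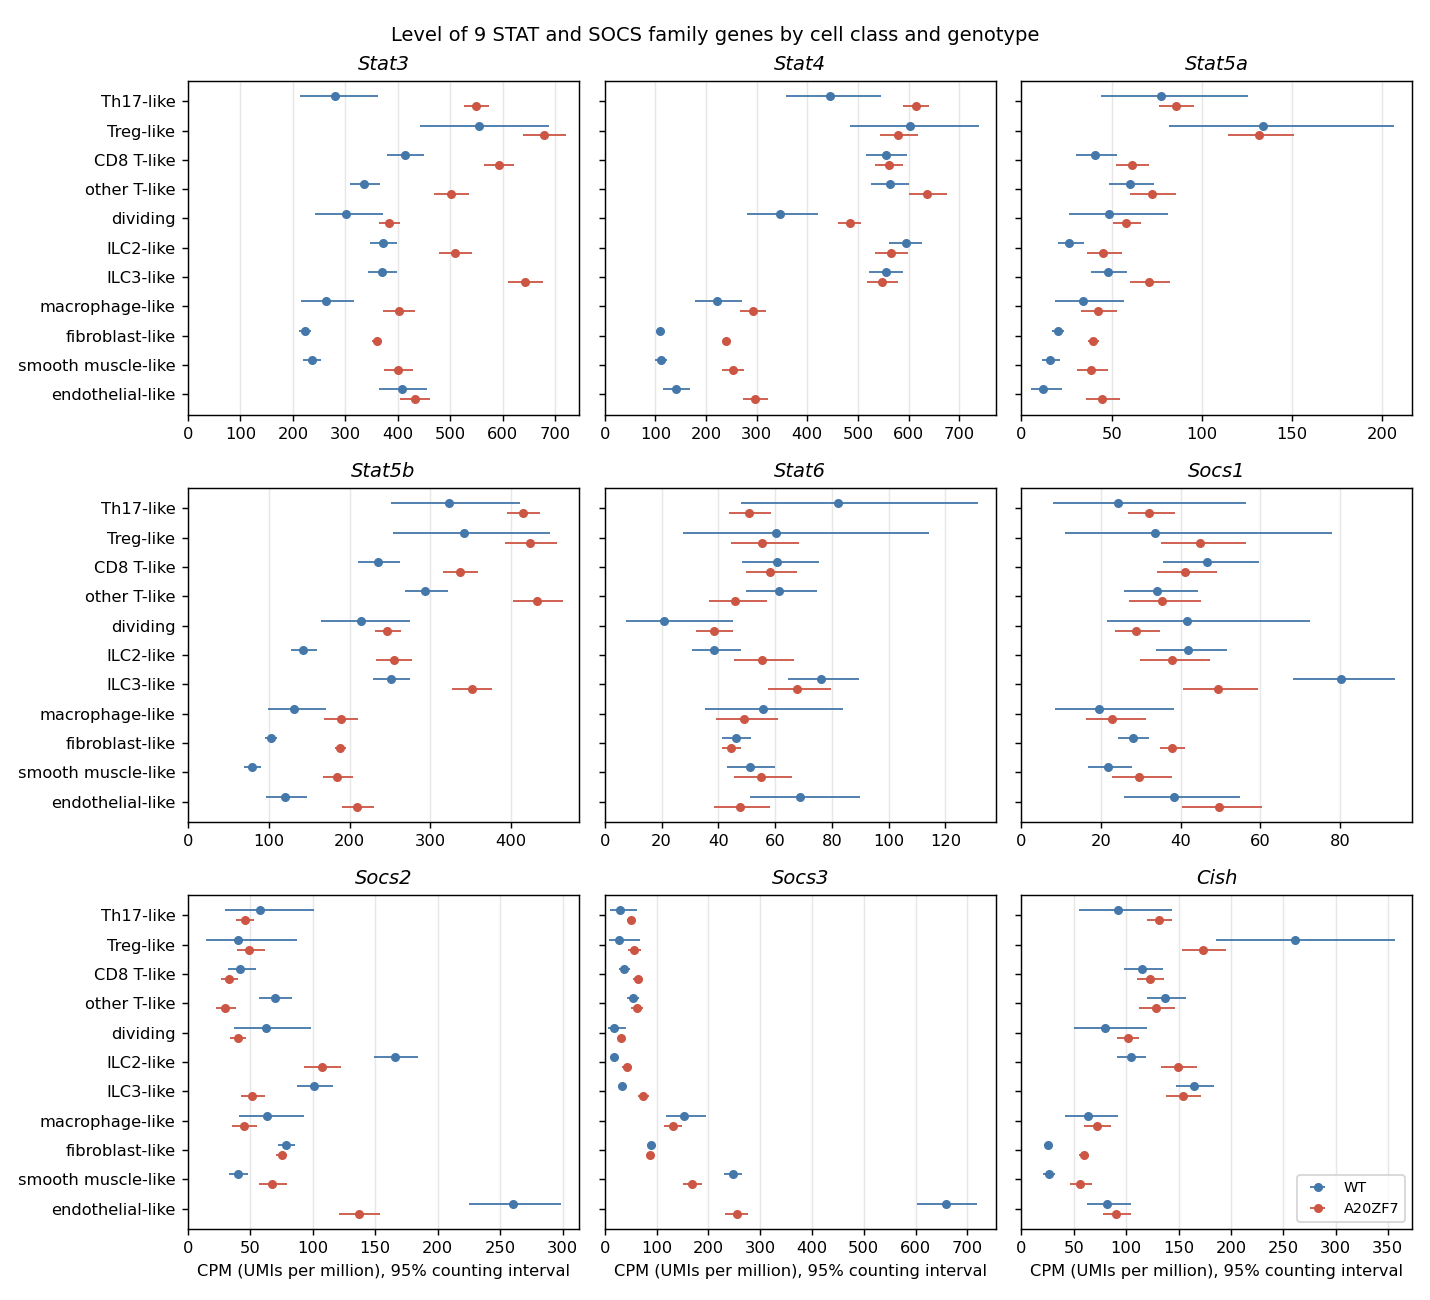
Level of each member (CPM, linear axis from 0) in 11 classes, with WT in blue and *A20ZF7* in red; points are summed UMIs of a class and bars are 95% counting intervals. *Stat4* and *Stat5b* are highest in lymphocyte classes, *Socs2* and *Socs3* in endothelial-like cells, and *Stat5a* and *Cish* in Treg-like cells.

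*Stat5b* and *Stat5a*, the IL-2 and IL-7 relays, moved like *Stat3*. *Stat5b* was 229 CPM (219 to 240) in WT and 344 CPM (336 to 353) in *A20ZF7* lymphocyte barcodes, a ratio of 1.5 (1.42 to 1.58) that lay just under the 1.5-fold mark before rounding. It was higher in *A20ZF7* in all 22 clusters compared, by 1.15- to 2.97-fold, with the counting interval above 1 in 20 of them. The largest ratio among the lymphocyte classes was that of ILC2-like cells, with 143 and 255 CPM (ratio 1.79, 1.55 to 2.07). *Stat5a* was 45.7 CPM (41 to 50.7) in WT and 72.3 CPM (68.4 to 76.3) in *A20ZF7* lymphocyte barcodes, a ratio of 1.58 (1.41 to 1.79). It was higher in *A20ZF7* in all 10 of the 27 clusters that could be compared, with the counting interval above 1 in 8 of them. As for *Stat3*, the pooled rate favoured clusters in which *Stat5a* or *Stat5b* was high in *A20ZF7*. The share of all genes doing the same is not given. The Treg-like cluster had too few UMIs and is not among these 10. Treg-like cells, a type that depends on IL-2, had the most *Stat5a* in both libraries, 134 CPM in WT (20 UMIs) and 132 CPM in *A20ZF7* (209 UMIs), equal within counting error (ratio 0.986, 0.622 to 1.65), although in WT the Th17-like level of 77.3 CPM was also within counting error of it. They also led *Stat5b* in WT (341 CPM), within counting error of Th17-like (324 CPM) and other T-like cells (294 CPM). Treg-like and Th17-like cells were far more numerous in *A20ZF7*. The mixture of classes and the level within them thus both enter the lymphocyte totals of *Stat5a* and *Stat5b*. *Stat5a* and *Stat5b* are close paralogs, so reads shared by both may have been dropped or split between them.

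*Stat5b*, *Stat5a* and *Stat3* lie next to each other on chromosome 11 (GRCm38, 100780731 to 100850724, 100859351 to 100885169 and 100885098 to 100939540), where the 3′ ends of *Stat5a* and *Stat3* overlap on opposite strands. The 14 other genes within 200000 bases that could be compared in lymphocyte barcodes had a median ratio of 0.985, and 1 of them exceeded 1.4, *Psmc3ip* at 1.71 with 22 WT UMIs. By the ratio itself the 3 STAT genes thus stood above all of these neighbours but *Psmc3ip*. The counting intervals of some neighbours overlapped theirs, such as that of *Tubg1* (ratio 1.39, 1.10 to 1.78). The other members lie apart from them: *Stat4* on chromosome 1 (51987148 to 52107189), *Stat6* (127642986 to 127660957) and *Socs2* (95385362 to 95417180) on chromosome 10, *Socs1* on chromosome 16 (10782240 to 10785536), *Socs3* far from the STAT genes on chromosome 11 (117966079 to 117970047) and *Cish* on chromosome 9 (107296026 to 107302784).

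*Stat4*, the IL-12 relay, did not follow them in lymphocytes. Its level was 558 CPM (541 to 574) in WT and 564 CPM (553 to 575) in *A20ZF7* lymphocyte barcodes, a ratio of 1.01 (0.976 to 1.05). In *A20ZF7* the 6 lymphocyte classes other than dividing cells lay between 548 CPM (ILC3-like) and 637 CPM (other T-like). In WT, 5 of them lay between 555 and 602 CPM, and Th17-like cells had 445 CPM (92 UMIs). The Th17-like ratio was 1.38 (1.12 to 1.72). Over clusters of all cell types, *Stat4* was higher in *A20ZF7* in 19 of 22 compared (median 1.95-fold), with the counting interval above 1 in 16. Stromal barcodes held 109 CPM in WT and 242 CPM in *A20ZF7*, a ratio of 2.21 (2.07 to 2.37). T cell genes moved with it there, at 301 and 985 CPM as given above, and their part was not tested. Within the *Sfrp1* cluster of fibroblast-like cells *Stat4* was 243 CPM in WT and 251 CPM in *A20ZF7*. In smooth muscle-like cells the ratio of 2.28 turned to 0.989 against the WT mouse with hashtag 8 alone. That comparison leaves out WT cells without a hashtag call.

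*Stat6*, the IL-4 and IL-13 relay, was at nearly the same level in both libraries in lymphocytes and stroma. Its level was 57.7 CPM (52.4 to 63.3) in WT and 52 CPM (48.8 to 55.5) in *A20ZF7* lymphocyte barcodes (ratio 0.903, 0.805 to 1.01), and 47.5 and 45.9 CPM in stromal barcodes (ratio 0.965, 0.86 to 1.08). Of 14 clusters compared, none was at least 1.5-fold higher and 1 was at least 1.5-fold lower, the fibroblast-like cluster led by *Igfbp6* and *Mfap5* (50.5 and 33.4 CPM). In ILC2-like cells *Stat6* was 38.7 and 55.2 CPM (ratio 1.43, 1.07 to 1.92), and above 1 in all 13 alternatives (1.21 to 1.62). In endothelial-like cells the *Stat6* ratio was below 1 in all 13 alternatives (0.611 to 0.781). Marker, T cell and free RNA values of the endothelial-like cells also differed, as given below for *Socs2*, and their part was not tested. In *A20ZF7* the classes from ILC3-like (67.9 CPM) down to dividing cells (38.3 CPM) had no neighbouring pair apart beyond counting error, although these ends were apart.

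**Figure D2:**
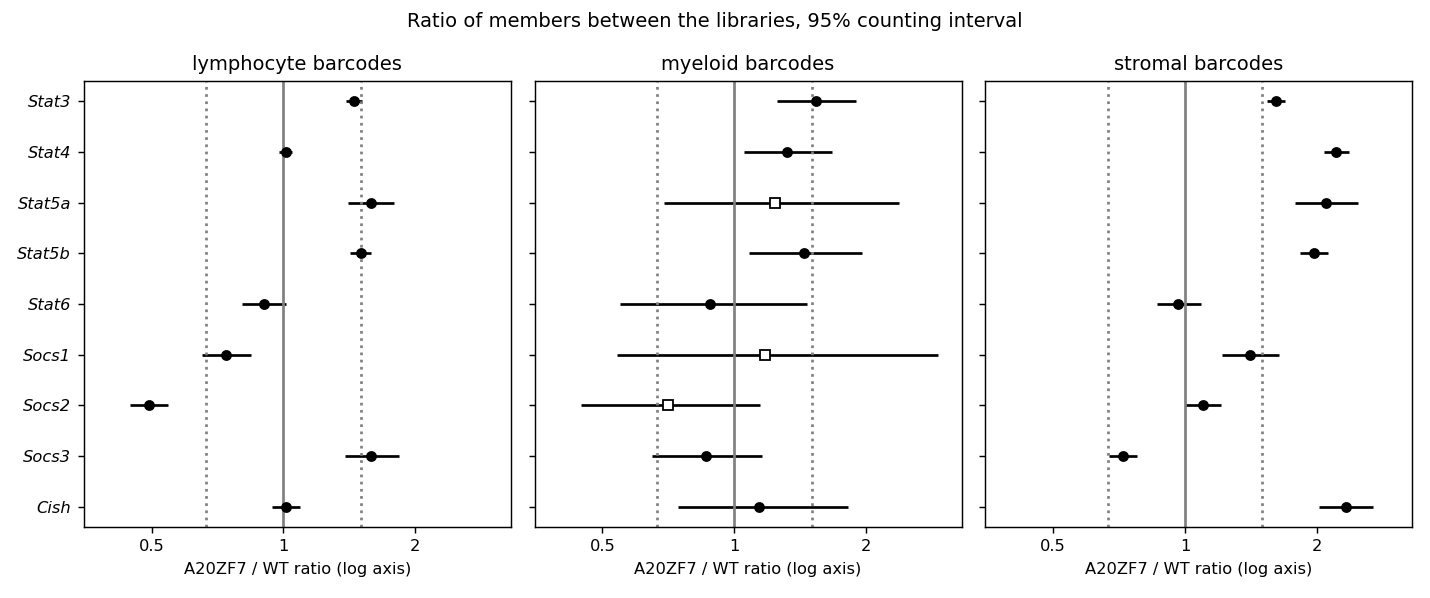
Ratio of *A20ZF7* to WT CPM for each member (log axis) in lymphocyte, myeloid and stromal barcodes, with 95% counting intervals; dotted lines mark 1.5-fold either way, and open squares mark genes with too few UMIs to be counted. *Socs2* lies lowest in lymphocyte barcodes at 0.494, and *Cish* highest in stromal barcodes at 2.33.

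Of the feedback genes, *Socs2*, an inhibitor known for restraining growth hormone signals, was the one at least 1.5-fold lower in *A20ZF7* lymphocytes. Its level was 98.4 CPM (91.5 to 106) in WT and 48.6 CPM (45.4 to 51.9) in *A20ZF7* lymphocyte barcodes, a ratio of 0.494 (0.448 to 0.545). ILC2-like cells had the most among lymphocytes, 166 CPM in WT and 107 CPM in *A20ZF7* (ratio 0.645, 0.542 to 0.766). ILC3-like cells had 101 and 51.5 CPM (ratio 0.51, 0.402 to 0.645) and other T-like cells 69.3 and 29.6 CPM (ratio 0.426, 0.301 to 0.597). In CD8 T-like cells the levels were 42 and 32.9 CPM, within counting error (ratio 0.784, 0.558 to 1.11). Th17-like, Treg-like and dividing cells, far more numerous in *A20ZF7*, had 39.7 to 49.2 CPM there, so the mixture of classes and the level within them both enter the lymphocyte total. Over the 13 processing alternatives the lymphocyte ratio ran from 0.461 to 0.554. Endothelial-like cells had the highest level of any class, 260 CPM in WT and 137 CPM in *A20ZF7* (ratio 0.527, 0.437 to 0.635). In these cells the 5 endothelial marker genes summed to 3137 and 1942 CPM, the 5 T cell genes to 447 and 1324 CPM, and free RNA estimated from *Igha* made up 8.72% and 19.3% of UMIs. Their part in the *Socs2* difference was not tested, and with free RNA taken off the ratio was 0.569. Fibroblast-like cells had 78.8 and 75.1 CPM (ratio 0.952, 0.86 to 1.06), and smooth muscle-like cells went the other way, 40 and 67.1 CPM (ratio 1.68, 1.3 to 2.16, but 1.29 against the WT mouse with hashtag 7 alone). Thinned to 500 UMIs, 7.32% of WT and 4.5% of *A20ZF7* ILC2-like cells had a *Socs2* UMI (5 and 53 cells left out), against 1.02% and 1.25% of plasma cell-like barcodes.

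*Socs3*, the feedback inhibitor of the gp130 (*Il6st*) receptors, had its highest levels in vessels, glia, muscle and a fibroblast-like cluster. Levels were low in lymphocytes, and the genotypes differed in opposite directions between these groups. Over all 16 clusters compared, 9 were higher in *A20ZF7*, and the ratios ran from 0.347 to 4.42. The highest of these ratios lay outside the lymphocyte clusters. Endothelial-like cells had 659 CPM in WT, from 499 UMIs, and 254 CPM in *A20ZF7*, from 513 UMIs, a ratio of 0.386 (0.341 to 0.438) that ran from 0.35 to 0.509 over the alternatives. The endothelial marker, T cell and free RNA values given for *Socs2* differed between the same cells, and their part in the *Socs3* difference was not tested. With free RNA taken off the ratio was 0.431. Both large endothelial clusters were lower in *A20ZF7*, the one led by *Fabp4* and *Flt1* (499 and 173 CPM) and the one led by *Selp* and *Madcam1*, genes of venules (904 and 505 CPM). The fibroblast-like cluster led by *Igfbp6* had 359 and 234 CPM, the *Mustn1* smooth muscle-like cluster had 328 and 232 CPM, and glia-like cells, only 46 in WT and 71 in *A20ZF7*, had 727 and 436 CPM. In lymphocytes, where *Socs3* was scarce, it was higher in *A20ZF7*. Lymphocyte barcodes had 33.1 CPM (29.1 to 37.4) in WT and 52.5 CPM (49.2 to 55.9) in *A20ZF7*, a ratio of 1.59 (1.38 to 1.83). ILC3-like cells had 32.4 and 74.1 CPM (ratio 2.29, 1.7 to 3.11), ILC2-like cells 18.6 and 42.3 CPM (ratio 2.27, 1.54 to 3.39) and CD8 T-like cells 36.7 and 64.1 CPM (ratio 1.75, 1.27 to 2.44). The ILC2-like ratio was 1.37 against the WT mouse with hashtag 8 alone and 1.20 to 1.33 with classes from marker UMIs, while the ILC3-like ratio ran from 1.52 to 2.98 over the alternatives. Plasma cell-like barcodes moved the same way, with 13 and 38.9 CPM. WT Th17-like cells held 6 *Socs3* UMIs, too few for a comparison. Thinned to 500 UMIs, 24.6% (21.2 to 28.2) of WT and 10.9% (9.39 to 12.6) of *A20ZF7* endothelial-like cells had a *Socs3* UMI (4 and 42 left out; 40.9% and 22.3% unthinned), but the lymphocyte shares were 1.6% and 2.44%, beside 0.409% and 1.4% in plasma cell-like barcodes. Barcodes with 10 to 100 UMIs, taken as free RNA, had 38.6 CPM in WT (73 UMIs) and 25.9 CPM in *A20ZF7* (25 UMIs), a ratio of 0.673 (0.409 to 1.07). The free RNA share estimated from *Igha* in lymphocyte barcodes was 7.65% and 12.3%, and its part was not tested.

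**Figure D3:**
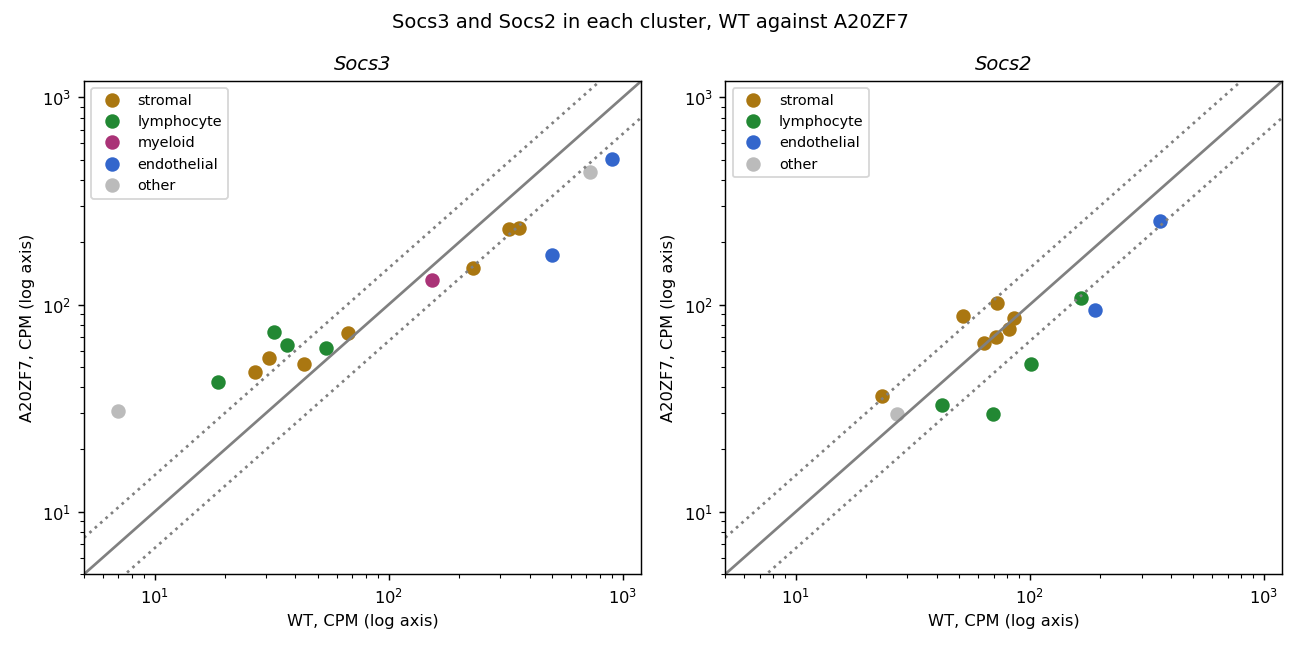
*Socs3* and *Socs2* in each cluster with enough UMIs, WT against *A20ZF7* (CPM, both axes log), coloured by cell type; the solid line marks equal levels and the dotted lines 1.5-fold. For *Socs3* both endothelial clusters lie below the line (904 and 505 CPM, 499 and 173 CPM) and the lymphocyte clusters above it.

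*Socs1*, which blocks JAK kinases downstream of interferon receptors, had its highest WT level in ILC3-like cells, at 80.3 CPM from 156 UMIs. It was 49.3 CPM there in *A20ZF7*, a ratio of 0.614 (0.477 to 0.788). All other WT classes had 46.5 CPM or less. Over lymphocyte barcodes the levels were 50.1 CPM (45.2 to 55.4) and 37.1 CPM (34.3 to 40), a ratio of 0.74 (0.652 to 0.841), and over stromal barcodes they were 26.1 and 36.8 CPM (ratio 1.41, 1.22 to 1.63).

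*Cish*, a classic STAT5 target that restrains IL-2 and T cell receptor signals, was a lymphocyte gene with its highest level in Treg-like cells. These had 261 CPM in WT, from 39 UMIs, and 174 CPM in *A20ZF7*, from 275 UMIs, a ratio of 0.665 (0.474 to 0.956). This direction turned, to ratios of 1.14 to 1.23, where classes were set from marker UMIs in place of clusters. ILC3-like cells came next in both libraries, at 165 and 154 CPM. The lymphocyte total was the same within counting error, 130 CPM (122 to 139) in WT and 132 CPM (127 to 138) in *A20ZF7* (ratio 1.01, 0.942 to 1.09). ILC2-like cells had 104 and 149 CPM (ratio 1.43, 1.2 to 1.71). In stromal barcodes *Cish* was 25.3 and 58.9 CPM, a ratio of 2.33 (2.02 to 2.68), where the T cell genes given above also differed by library. Treg-like cells had both the highest *Cish* and the highest *Stat5a* value in each library. In WT the *Stat5a* value was within counting error of the Th17-like one, and the *Cish* value rests on 39 UMIs.

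Counted together, few members passed 1.5-fold in lymphocytes and more did in stroma. A gene was compared where at least 20 UMIs were expected in the library with fewer, at the rate pooled over both libraries. In lymphocyte barcodes *Stat5a* and *Socs3* were at least 1.5-fold higher in *A20ZF7* and *Socs2* at least 1.5-fold lower, 2 and 1 of the 9 members, where 9.36% and 8.75% of 11144 genes passed those marks. The median member ratio was 1.01, and that of all genes was 0.997. In myeloid barcodes 6 members could be compared, and *Stat3* (262 and 402 CPM, ratio 1.53) was higher and none lower, beside 9.79% and 4.5% of genes. In stromal barcodes *Stat3*, *Stat4*, *Stat5a*, *Stat5b* and *Cish* were at least 1.5-fold higher and none lower, beside 12.2% and 14.3% of genes, with a median member ratio of 1.61 against 0.95 for all genes. The stromal count was 3 against the WT mouse with hashtag 7 alone and 1 against the mouse with hashtag 8 alone. Both leave out the 5322 of 8240 WT stromal cells without a hashtag call. The counts of higher members ran from 0 to 4 in lymphocyte and in myeloid barcodes over the alternatives. The shares of all genes given here are those of the main setting alone. Of the 38 calls made in the lineages and classes given here and next, 12 held in every alternative run for them (10 for *Socs2* in other T-like cells, 13 for the others). The *Stat5a* call in lymphocyte barcodes held in 8 of 13 (1.37 to 1.70), the *Stat3* call in 8 of 13 in stromal barcodes (1.38 to 1.70) and in 5 of 13 in myeloid barcodes (1.21 to 1.82).

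By class, the counts of members at least 1.5-fold higher and lower were as follows, each beside the shares of all genes. In Th17-like, Treg-like and dividing cells most UMIs are from *A20ZF7*, so the pooled rate passed genes high in *A20ZF7* more readily. In dividing cells *Il21r* was compared with 18 WT UMIs (ratio 1.75), but *Il12rb2* with 34 was not (ratio 0.481). Counts and shares of lower genes in these classes are thus understated against those of higher ones. The same applies to a lesser degree in myeloid barcodes (411599 WT and 1708649 *A20ZF7* UMIs) and endothelial-like cells (757768 and 2016336). Th17-like cells had 1 higher (*Stat3*) and none lower of 4 compared, beside 11.5% and 2.89%. Treg-like cells had none higher and 1 lower (*Cish*) of 4, beside 8.88% and 3.26%. CD8 T-like cells had 2 higher (*Stat5a*, *Socs3*) and none lower of 9, beside 8.51% and 5.92%, where *Stat5a* kept its call in 2 of 13 alternatives (1.19 to 1.91), and other T-like cells had none higher and 1 lower (*Socs2*) of 9, beside 9.67% and 7.06%. Dividing cells had none of 4 either way, beside 9.92% and 2.9%. ILC2-like cells had 3 higher (*Stat5a*, *Stat5b*, *Socs3*) and 1 lower (*Socs2*) of 9, beside 9.74% and 9.92%, but *Stat5a* turned to ratios of 0.893 to 0.929 with classes from marker UMIs. ILC3-like cells had 2 higher (*Stat3*, *Socs3*) and 2 lower (*Socs1*, *Socs2*) of 9, beside 10.5% and 8.67%. Fibroblast-like cells had 5 higher of 9 (those of stroma) and none lower, beside 11.7% and 12.9%, and smooth muscle-like cells had 6 higher, those 5 with *Socs2*, and none lower, beside 14.0% and 13.1%. Endothelial-like cells had 3 higher (*Stat4*, *Stat5a*, *Stat5b*) and 2 lower (*Socs2*, *Socs3*) of 9, beside 14.0% and 13.8%.

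The *Stat3*, *Stat5a* and *Stat5b* differences were also present in free RNA and in cells of other types. In plasma cell-like barcodes *Stat3* was 78.9 and 210 CPM (ratio 2.66, 2.20 to 3.23) and *Stat4* 75.4 and 198 CPM (ratio 2.63, 2.17 to 3.21). In barcodes with 10 to 100 UMIs *Stat3* was 174 CPM in WT and 451 CPM in *A20ZF7*, a ratio of 2.59 (2.24 to 3). *Stat5b* was 123 and 374 CPM there (ratio 3.05, 2.58 to 3.61), *Stat5a* 15.8 and 61.2 CPM (ratio 3.86, 2.45 to 6.21), *Stat4* 343 and 653 CPM (ratio 1.90, 1.70 to 2.13) and *Cish* 39.6 and 70.6 CPM (ratio 1.78, 1.26 to 2.51). *Stat6* stood at 35.4 and 35.3 CPM, and *Igha*, the plasma cell gene used to scale free RNA, at 8290 and 8162 CPM. Taking the few-UMI profile off, scaled by *Igha*, left ratios of 1.42 for *Stat3*, 1.53 for *Stat5a* and 1.43 for *Stat5b* in lymphocyte barcodes, and of 2.02 for *Stat4* and 2.36 for *Cish* in stromal barcodes. How much of each difference comes from free RNA was not tested beyond this.

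**Figure D4:**
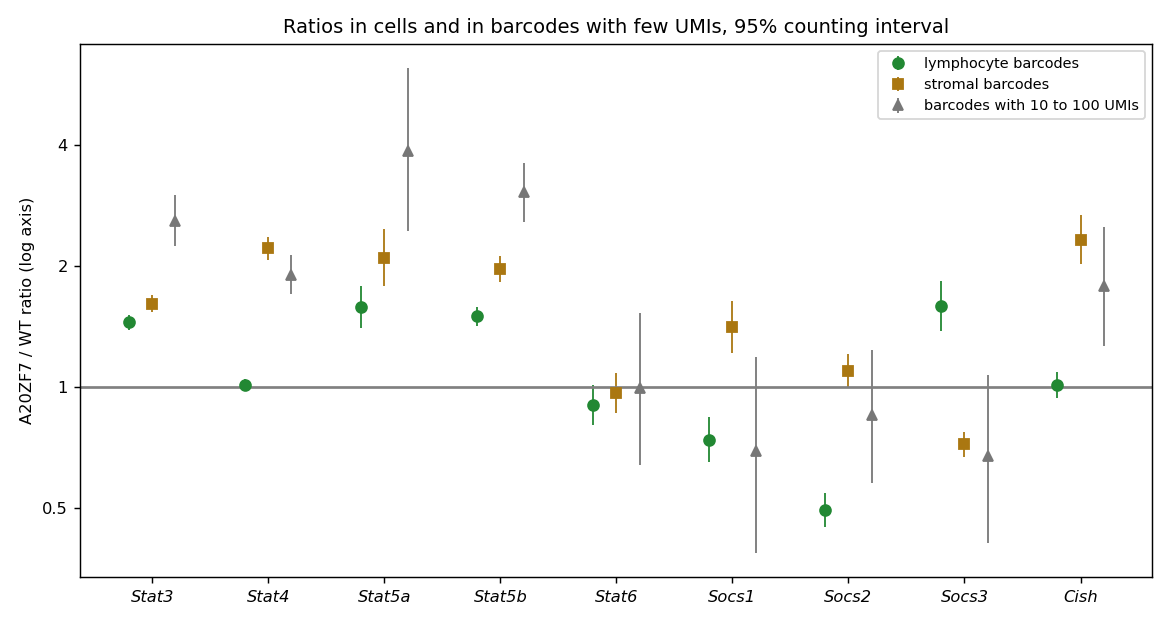
Ratio of *A20ZF7* to WT CPM (log axis) for each member in lymphocyte barcodes, stromal barcodes and barcodes with 10 to 100 UMIs, with 95% counting intervals. For *Stat3*, *Stat5a* and *Stat5b* the few-UMI barcodes show the largest ratios (2.59, 3.86 and 3.05), whereas *Socs2* in lymphocyte barcodes lies below both other groups.

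The 2 WT mice, told apart by hashtag, show how far animals of 1 genotype differed among cells with a hashtag call. In lymphocyte barcodes *Stat3* was 378 CPM in the mouse with hashtag 7 and 373 CPM in the mouse with hashtag 8, both under the 536 CPM of *A20ZF7*. *Stat5b* was 235 and 223 CPM, and *Stat5a* 51 and 42.5 CPM, again both under *A20ZF7*. *Socs2* was 105 and 89.4 CPM, both above the 48.6 CPM of *A20ZF7*, and *Socs3* was 29 and 36.6 CPM, both under 52.5 CPM. *Socs3* in endothelial-like cells was 630 and 726 CPM in the mice, against 254 CPM. In stromal barcodes the mice were nearer to *A20ZF7* than the whole WT library was: *Stat4* was 168 and 209 CPM in the mice, 242 CPM in *A20ZF7* and 55.9 CPM in the 5322 WT stromal cells without a hashtag call. *Cish* was 35.4 and 42.9 CPM in the mice, 58.9 CPM in *A20ZF7* and 16.1 CPM in the WT stromal cells without a call. Both genes thus differed more between stromal cells with and without a call than between the mice. Stromal ratios against 1 mouse therefore also depend on which cells carried a call. Spread among *A20ZF7* mice was not measured here.

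**Figure D5:**
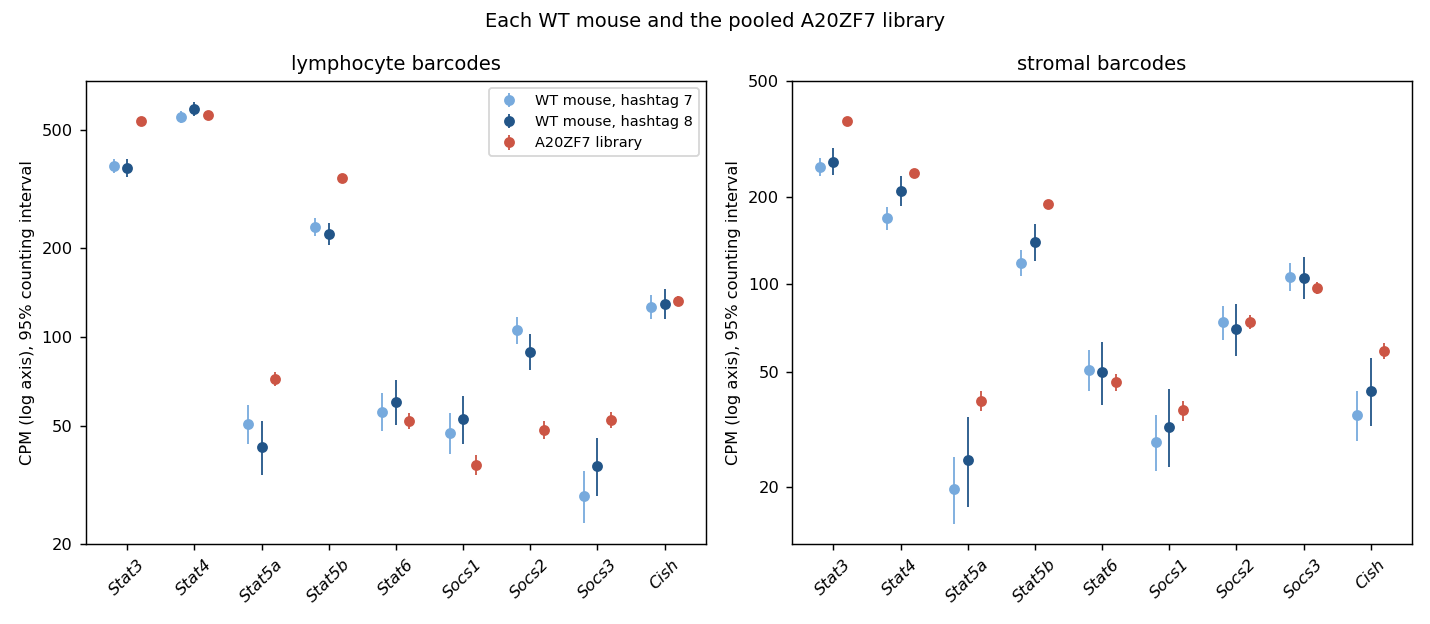
Level of each member (CPM, log axis) in the WT mouse with hashtag 7, the WT mouse with hashtag 8 and the pooled *A20ZF7* library, with 95% counting intervals. In lymphocyte barcodes both mice lie below *A20ZF7* for *Stat3* (378 and 373 against 536 CPM) and above it for *Socs2* (105 and 89.4 against 48.6 CPM).

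The rest of the pathway was read from 57 genes in 11 lists. In lymphocyte barcodes 51 could be compared, of which 6 were at least 1.5-fold higher in *A20ZF7* and 3 lower, beside 9.36% and 8.75% of all genes. Among the higher ones, *Il23r*, the receptor chain that feeds STAT3, was 239 and 381 CPM (ratio 1.59), the phosphatase gene *Ptpn1* 100 and 169 CPM (ratio 1.69), *Batf* 80.7 and 196 CPM (ratio 2.43), *Bcl3* 17.6 and 43.4 CPM (ratio 2.47) and *Socs5* 15 and 25 CPM (ratio 1.67). The lower ones were *Il7r*, a STAT5 receptor chain, at 858 and 528 CPM (ratio 0.616), *Il12rb2*, the STAT4 receptor chain, at 252 and 99 CPM (ratio 0.393), and the kinase gene *Pim2* at 61.8 and 39.1 CPM (ratio 0.633). All 4 JAK genes (*Jak1*, *Jak2*, *Jak3*, *Tyk2*) and all 4 PIAS genes stayed between those marks. Within classes *Il12rb2* was 579 and 166 CPM in other T-like cells (ratio 0.286) and 418 and 205 CPM in CD8 T-like cells (ratio 0.492). The classes differed in size between the libraries, so their mixture and the level within them both enter these totals. The *Il7r* ratio was 0.617 in ILC3-like, 0.761 in other T-like, 0.811 in Th17-like and 0.818 in CD8 T-like cells. It was 0.946 in dividing, 1.04 in Treg-like and 1.06 in ILC2-like cells. *Pim2* was past 1.5-fold in no class with enough UMIs. Its ratios were 0.730 in other T-like, 0.743 in ILC2-like, 0.767 in CD8 T-like and 1.07 in ILC3-like cells.

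In Th17-like cells *Il23r* was 430 and 522 CPM (ratio 1.21, 0.981 to 1.52). *Il23r* is on the marker lists that named the Th17-like and ILC3-like clusters, and pathway genes were not kept out of the clustering. In ILC3-like cells 12 of 44 were higher and 2 lower, beside 10.5% and 8.67% of all genes, with *Jak2* at 139 and 226 CPM (ratio 1.63) and *Il7r* at 1386 and 855 CPM (ratio 0.617). In ILC2-like cells 12 of 46 were higher and 1 lower, beside 9.74% and 9.92% of all genes, with *Pim1*, a kinase gene induced by STATs, at 281 and 590 CPM (ratio 2.10) and *Il23r* at 54 and 199 CPM (ratio 3.67). The 5 T cell genes moved with these ILC values, at 744 and 1410 CPM in ILC2-like and 1110 and 1512 CPM in ILC3-like cells, and their part was not tested.

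In endothelial-like cells 13 of 37 pathway genes were higher and 6 lower, beside 14.0% and 13.8% of all genes. Of the 7 STAT3 receptor genes compared, 2 were higher and 2 lower. *Il21r* was 35.6 and 83.3 CPM (ratio 2.34) and *Il23r* 56.7 and 209 CPM (ratio 3.68), while *Il6st* (gp130) was 381 and 189 CPM (ratio 0.497) and *Lifr* 280 and 88.3 CPM (ratio 0.316). *Irf1*, a gene induced by STATs, was 769 and 444 CPM (ratio 0.578). The endothelial marker, T cell and free RNA values given for *Socs2* differed between the same cells. Their part in these pathway values was not tested. In stromal barcodes 17 of 54 were higher and 2 lower, beside 12.2% and 14.3% of all genes. Receptor chains of lymphocytes stood among the higher ones, with *Il23r* at 50.8 and 164 CPM (ratio 3.23) and *Il2rb* at 43.9 and 113 CPM (ratio 2.57), beside the T cell genes already given. In myeloid barcodes 5 of 31 were higher and 2 lower, beside 9.79% and 4.5% of all genes, with *Jak2* at 131 and 214 CPM (ratio 1.63), *Il23r* at 92.3 and 177 CPM (ratio 1.92) and *Ifngr2* at 85 and 50.9 CPM (ratio 0.599). Free RNA estimated from *Igha* made up 7.24% of myeloid UMIs in WT and 30.1% in *A20ZF7*, and its part in these values was not tested.

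Genes with the most similar pattern were sought over 26 values, 13 classes in each library, among 7481 other genes with at least 50 CPM in a class. Pearson's r of log2(CPM + 10) describes likeness of level across classes that share libraries and has no test. *Stat4* ran with *Stk10* (r = 0.983), *Tbc1d10c* (0.981) and *Zap70* (0.979), the last a T cell receptor kinase gene. *Stat5b* ran with *Camk4* (0.973), *Satb1* (0.971) and *Kdm2b* (0.971), and *Stat5a* with *Zbtb1* (0.938), *Cd247* (0.938) and *Nt5e* (0.934). *Stat3* ran with *Pak2* (0.943), *Zswim6* (0.943) and *Csnk1g1* (0.94). *Cish* ran with *Chd7* (0.957), *Kdm6a* (0.947) and *Arhgef1* (0.946), and *Socs3* with *Spop* (0.928), *Klf2* (0.918) and *Anxa3* (0.908). The likeness was weaker for *Stat6* (*Rbbp6*, 0.897), *Socs1* (*Sap130*, 0.881) and *Socs2* (*Nxpe4*, 0.828).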

How the data were processed

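Single cells of the small-intestinal lamina propria were sequenced with a 5′ kit, 1 gene expression library and 1 hashtag antibody library per genotype. The deposited files hold raw UMI counts per gene and barcode. The authors aligned and counted the reads with Cell Ranger, 7.1 per the labels' processing notes and 8.0.0 per the file headers, and the notes also name R 4.3.3 and Seurat 4.3. The 2 gene lists differ, so the 31950 gene IDs in common were used. The deposited antibody counts of both genotypes are identical, and they were used for WT only.

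Barcodes with 200 to 2500 genes, at most 15% mitochondrial UMIs and at least 500 UMIs were kept, and 2830 WT barcodes with 2 hashtags (HTODemux, quantile 0.99) were removed as doublets. This step removed no *A20ZF7* barcodes, because their hashtags could not be read, so the main filters were unequal between the genotypes. No doublet caller was applied in the main values. As an alternative, Scrublet scores above 0.25 removed 1.84% of WT and 1.31% of *A20ZF7* cells. Cells were clustered without the 9 genes in Seurat 5.3.0 (R 4.3.3; 30 components, resolution 0.8, seed 1) and classes were named from marker lists. UMIs were summed by class with Python 3.11.15, numpy 2.4.6, scipy 1.17.1, pandas 2.3.3 and scanpy 1.11.5. Levels have exact Poisson intervals, ratios exact conditional binomial intervals and shares exact (Clopper-Pearson) intervals. Genes with at least 20 expected UMIs in the smaller library, at the rate pooled over both libraries, were compared. At least 1.5-fold counted as higher or lower. The calculation was tested on simulated data. Depth was 23035456 WT and 44009326 *A20ZF7* UMIs in cells.

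All 9 genes are named, with the 3 most similar genes of each, or only the most similar gene for *Stat6*, *Socs1* and *Socs2*. Of the pathway genes past 1.5-fold, a part is named. The cluster leading genes, the neighbours of the STAT genes, the JAK and PIAS genes and *Il23r* in Th17-like cells were named after their values were seen. The genes and lists were chosen with earlier results of these data known. A pathway gene is not reported here.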

Additional observations from a re-analysis of the deposited data

Results flagged for a closer look

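For 3 members the ratio was at least 1.5-fold higher in some class and at least 1.5-fold lower in another, with no overlap of the counting intervals. *Socs1* also differed in direction, between ILC3-like cells and stromal barcodes, but was short of 1.5-fold in stromal barcodes. The share of all genes that do the same is not given, so the count of 3 is not a result about the members. *Socs2* had a ratio of *A20ZF7* to WT of 1.68 in smooth muscle-like cells and of 0.426 in other T-like cells. *Socs3* had a ratio of 2.29 in ILC3-like cells and of 0.386 in endothelial-like cells. *Cish* had a ratio of 2.36 in fibroblast-like cells and of 0.665 in Treg-like cells, where WT held 39 UMIs. The Treg-like value was past 1.5-fold in 6 of 13 processing alternatives and turned to 1.14 to 1.23 in the 3 with classes from marker UMIs. Over the alternatives the fibroblast-like *Cish* ratio ran from 1.26 to 3.10, and the smooth muscle-like *Socs2* ratio from 1.29 to 1.82. T cell genes were also higher in *A20ZF7* stromal barcodes, and their part was not tested. With 1 library per genotype the difference between classes was not tested.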

How the results depend on the processing

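Each of 13 processing alternatives was compared with the values reported. Of 38 ratios past 1.5-fold, 12 stayed past it in all alternatives run for them (10 for *Socs2* in other T-like cells, a class that marker UMIs do not define) and 3 changed direction in at least 1. Classes were set from marker UMIs alone, together with a limit of 5000 genes, and together with WT barcodes of 2 hashtags kept. In these 3 settings the *Cish* ratio in Treg-like cells was 1.23, 1.23 and 1.14, and the *Stat5a* ratio in ILC2-like cells 0.929, 0.929 and 0.893. Against the WT mouse with hashtag 8 alone the *Stat4* ratio in smooth muscle-like cells was 0.989. The lymphocyte count of higher members, 2 as reported, was 1 at a minimum of 1000 UMIs, 4 with cells thinned to 500 UMIs, 1, 1 and 0 in those 3 settings, and 1 against the mouse with hashtag 7. The myeloid count of higher members, 1 as reported, was 4 at 1000 UMIs, 4 with marker UMI classes and the limit of 5000 genes together, 2 against the mouse with hashtag 8, and 0 with scaling by the median ratio, with free RNA taken off, with Scrublet and at resolution 1.6. The myeloid count of lower members, 0 as reported, was 1 with thinning, with free RNA taken off and against the mouse with hashtag 8. The stromal count of higher members, 5 as reported, was 3 against the mouse with hashtag 7 and 1 against the mouse with hashtag 8. All comparisons with a single WT mouse leave out the WT cells without a hashtag call. The shares of all genes past 1.5-fold are given for the main setting only. Whether these shifts are particular to the members was not tested. The causes were not tested. No paired analysis was possible because each genotype is 1 library. The 357 WT myeloid, 249 Th17-like and 169 Treg-like cells limit what could be compared there.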
